A study of Mus musculus with 4 samples.

Results

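Dense clusters are stretches of the genome in which many distal peaks of open chromatin lie close together. They were found in the peak list of WT mouse rib chondrocytes, which was measured by ATAC-Seq. An interval was taken as distal when its summit lay over 1 kb from any protein-coding transcription start site (TSS), and distal intervals on the 19 autosomes were stitched where the gap between them was at most 12.5 kb. Groups of 6 or more intervals were kept. Of 90971 WT intervals, 88965 were autosomal and 68148 of these were distal. They formed 34048 stitched groups, and 1568 of the groups were dense clusters. The dense clusters held 12866 intervals, or 18.9% of the distal intervals, in 2.22% of the autosomal sequence. Membership was chosen on WT positions and the rank on WT fold enrichment and width, so the WT values below describe the choice and were not tested.

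Open chromatin was measured in primary chondrocytes from the rib cartilage of newborn mice, used at an early passage. ATAC-Seq uses the Tn5 transposase, which inserts sequencing adapters where DNA is accessible. There were 4 libraries. The 2 Cho libraries carry no genotype in their labels, the WT library is labelled WT, and the deletion library came from E160(delta/delta);E308(delta/delta) mice, made by genome editing in C57BL/6J. E160 and E308 are elements upstream of Sox9, the gene of a transcription factor needed for cartilage, and mice of this genotype lack both elements on both alleles. With 1 library for each genotype, WT against the deletion is a comparison of single libraries, for which no test of genotype is possible. Nothing in the labels ties the Cho replicates to separate animals.

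Enhancers are stretches of DNA that bind transcription factors and raise transcription of a gene that may lie far away. Genes that a cell type uses strongly, and genes that many signals act on, often have several such elements side by side, and stitching neighbouring elements is a common way to find those regions. Accessibility alone does not show that an element is active, and the nearest gene is not always the gene it acts on.

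The strongest interval of a dense cluster shows what its members look like as sequence. Windows of 101 bases around the summit are printed for the highest interval of clusters that the results below turn on, read from the NCBIM37 (mm9) genome on the plus strand. Capitals mark any word searched for, on either strand: AP-1 TGANTCA, SOX CATTGT or ACAAAG, RUNX TGTGGT, TEAD GGAATG, NFI TTGGCA, E-box CAGCTG and CRE TGACGTCA. No word holds another.
Rank 1, Rxra and Col5a1, chr2:27714287-27714387: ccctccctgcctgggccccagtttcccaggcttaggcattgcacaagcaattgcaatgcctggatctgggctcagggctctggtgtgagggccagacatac
Rank 3, nearest Wnt7b, chr15:85465008-85465108: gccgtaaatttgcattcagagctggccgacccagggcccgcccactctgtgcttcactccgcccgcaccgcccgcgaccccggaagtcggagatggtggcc
Rank 5, 6430527G18Rik, chr12:88174796-88174896: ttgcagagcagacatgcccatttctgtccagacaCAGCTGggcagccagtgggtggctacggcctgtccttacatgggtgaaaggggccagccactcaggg
Rank 6, Zmiz1, chr14:26346954-26347054: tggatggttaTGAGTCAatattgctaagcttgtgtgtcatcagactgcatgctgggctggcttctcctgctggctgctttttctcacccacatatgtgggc
Rank 8, nearest Pkdcc, chr17:83509406-83509506: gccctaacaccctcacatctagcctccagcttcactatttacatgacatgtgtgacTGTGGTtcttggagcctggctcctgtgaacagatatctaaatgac
Rank 124, nearest Atg7, chr6:114551935-114552035: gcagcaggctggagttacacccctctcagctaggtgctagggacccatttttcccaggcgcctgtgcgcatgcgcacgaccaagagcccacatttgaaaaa
The windows of ranks 1, 3, 5, 6 and 8 were unique in the genome by their 31-base words. Each word of the window of rank 124 occurred more often, with a median of 37 times on the NCBIM37 chromosomes. The Zmiz1 window holds an AP-1 word, the Pkdcc window a RUNX word and the 6430527G18Rik window an E-box.

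The lists differ in depth and in how they were called, and this bears on each count below. WT held 90971 intervals and the deletion 169591, and the most frequent background pileup at a summit was 0.361 and 0.626 tags. Cho replicate 1 held 76242 intervals. Its median interval was 404 bp wide, against 171 bp in WT and 172 bp in the deletion, so that 1 Cho replicate 1 interval could cover several WT intervals. In Cho replicate 1 all fold enrichments were over 1 constant background, while WT and the deletion used local backgrounds. Cho replicate 2 was read as GRCm38 and was therefore compared by gene symbol only. Of 5 defining chondrocyte genes (Col2a1, Acan, Sox9, Col9a1 and Matn1), WT and the deletion had an interval within 1 kb of a TSS at all 5, and Cho replicate 1 had none at Acan and Matn1. At the deleted elements, WT had 2 intervals in E308 with fold enrichments up to 15.4, and the deletion list still had 1, at 3.07, whose cause was not tested. At E160, WT had 2 intervals with fold enrichments up to 13.4, and the deletion list had 0.

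Most dense clusters were small. Of the 1568 clusters, 546 (34.8%) held exactly 6 intervals and 334 (21.3%) held 10 or more. The median cluster held 7 intervals in 32.0 kb, with quartiles of 6 and 9 intervals and of 24.7 and 41.9 kb, and its intervals covered 4.93% of its span. The median density was 2.33 intervals per 10 kb. Just outside the rule stood 946 groups of exactly 5 intervals, with a median span of 19.6 kb and a median fold enrichment of 6.56. The 546 groups of exactly 6 had 25.5 kb and 6.52, so the rule cut through a continuous range of sizes.

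**Figure D1:**
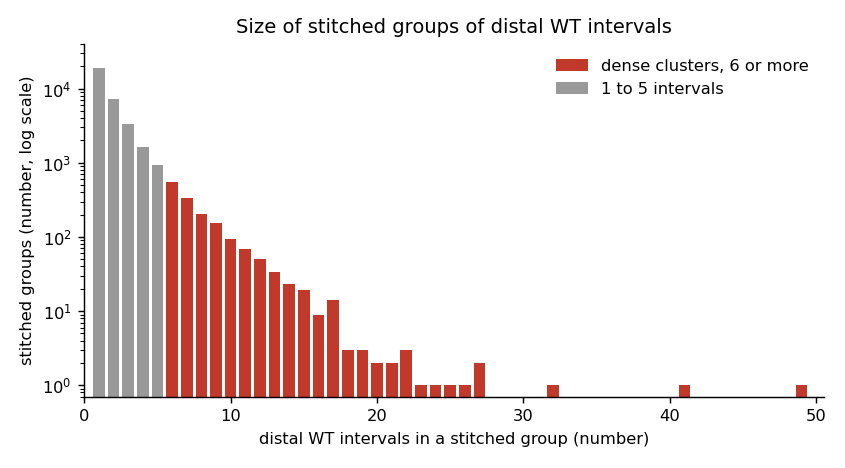
Number of stitched groups (y axis, log scale) by the number of distal WT intervals they hold (x axis). Red bars are the 1568 dense clusters and grey bars the groups of 1 to 5 intervals. The numbers fall steadily from 19196 lone intervals to 946 groups of 5 and 546 clusters of 6, and a single cluster holds 49.

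The region of Sox9 itself held no dense cluster. Sox9 directs chondrocyte fate, and its distal elements are spread over a long gene desert. In the 1.5 Mb upstream of its TSS, 54 distal WT intervals formed 34 stitched groups. The largest of these groups had 5 intervals, 1 fewer than the rule asks for, and its middle lay 308.3 kb upstream of the TSS, at the deleted element E308. The group at E160 had 3 intervals. The clusters described here therefore lay away from the deleted elements.

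Clusters were ranked by fold enrichment times width, summed over the intervals of a cluster. In the numbers given per cluster, WT intervals are the distal ones only. Those of the deletion and Cho replicate 1 are all intervals inside, also within 1 kb of a TSS, unless called distal. WT had 699 further intervals within 1 kb of a TSS, in 366 of the clusters. The 20 top-ranked clusters held 4.11% of the summed value of all clusters, and the first 156 clusters, 1 in 10, held 21.4%. The first cluster, chr2:27589987-27752972, was the longest, at 163 kb. It overlapped Rxra, which encodes a nuclear receptor that pairs with the retinoic acid, thyroid hormone and vitamin D receptors, and Col5a1, which encodes a collagen that controls the assembly of collagen fibrils. WT had 32 distal intervals in it, with a median fold enrichment of 8.48 and a highest of 15.3. The deletion list had 45 intervals there, 39 of them distal, and Cho replicate 1 had 22, 19 of them distal. All 32 WT intervals were overlapped by a deletion interval and 21 by a Cho replicate 1 interval, and the cluster ranked 1 of the 1568 in the deletion and 60 in Cho replicate 1.

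Next in rank came clusters far from any start site. The second, chr12:70503256-70603715, overlapped no protein-coding gene and lay 80.04 kb from the nearest TSS, that of Gm9887. It held 22 WT, 28 deletion and 19 Cho replicate 1 intervals. The third, chr15:85429441-85518271, lay 61.6 kb from Wnt7b, a gene of a Wnt ligand, and held 23, 29 and 12 intervals in the same order. Its highest interval, printed above, had a fold enrichment of 16.6 in WT, 14.7 in the deletion and 36.3 in Cho replicate 1. In the deletion list the second cluster ranked 2 and the third 4, and in Cho replicate 1 they ranked 104 and 28. The fifth cluster, chr12:88157234-88277106, overlapped 6430527G18Rik and held 26, 31 and 22 intervals (distal 26, 30 and 20).

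**Figure D2:**
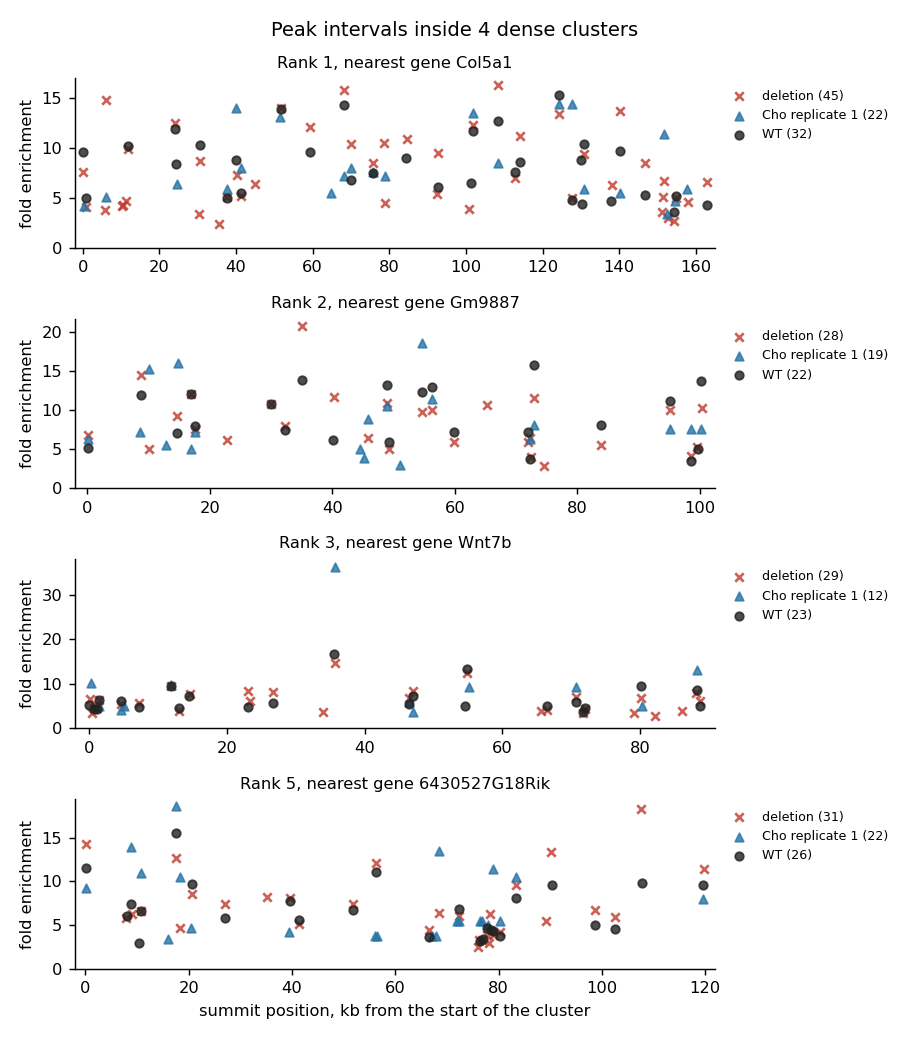
Summits inside the dense clusters of rank 1, 2, 3 and 5, by distance from the cluster start (x axis, kb) and fold enrichment (y axis). Black circles are WT, red crosses the deletion and blue triangles Cho replicate 1, with the number of intervals in brackets. WT summits are those of distal intervals, and the other lists show all intervals inside. Most WT summits have a deletion summit at the same place, and in the cluster near Wnt7b 1 Cho replicate 1 summit stands at 36.3, above the others.

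The sixth cluster, chr14:26295517-26406605, overlapped Zmiz1, which encodes a transcriptional coregulator. It held 27 WT intervals, 36 deletion intervals and 13 Cho replicate 1 intervals. The eighth, chr17:83468739-83548318, lay 106 kb from Pkdcc, which encodes a secreted kinase needed for normal long bones. It held 17 WT, 21 deletion and 13 Cho replicate 1 intervals. The tenth, chr1:135831145-135888426, lay 41.8 kb from Prelp, the gene of a leucine-rich repeat protein of the cartilage matrix. There 14 WT, 15 deletion and 7 Cho replicate 1 intervals were found. In each of these 3 clusters the deletion list had more intervals than WT and Cho replicate 1 fewer, as in the lists as a whole.

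Others of the 20 top-ranked clusters lay inside genes or near them. At Sept9, a septin of the cytoskeleton, WT had 27 intervals, the deletion 42 (34 distal) and Cho replicate 1 16 (12 distal). At Acvr1b, an activin receptor, and its neighbour Grasp, the numbers were 20, 29 and 13 (distal 20, 26 and 11). The cluster in Col4a2, a basement membrane collagen, was the most even of the 20, with 13, 13 and 12 intervals. At Myoz3 and Synpo, WT had 18 distal intervals, the deletion 33 (23 distal) and Cho replicate 1 23 (15 distal). WT had 7 further intervals there within 1 kb of a TSS. Sh3pxd2a encodes a scaffold of the podosomes with which cells degrade matrix, and its cluster had 25, 30 and 13 intervals. Socs3 encodes an inhibitor of cytokine signalling, and its cluster had 15, 21 and 8 (distal 15, 19 and 7). Clusters at Rab11fip4 (15 WT intervals), near Zfp516 (18) and 419 kb from Wdr11 (14) filled the remaining places.

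**Figure D3:**
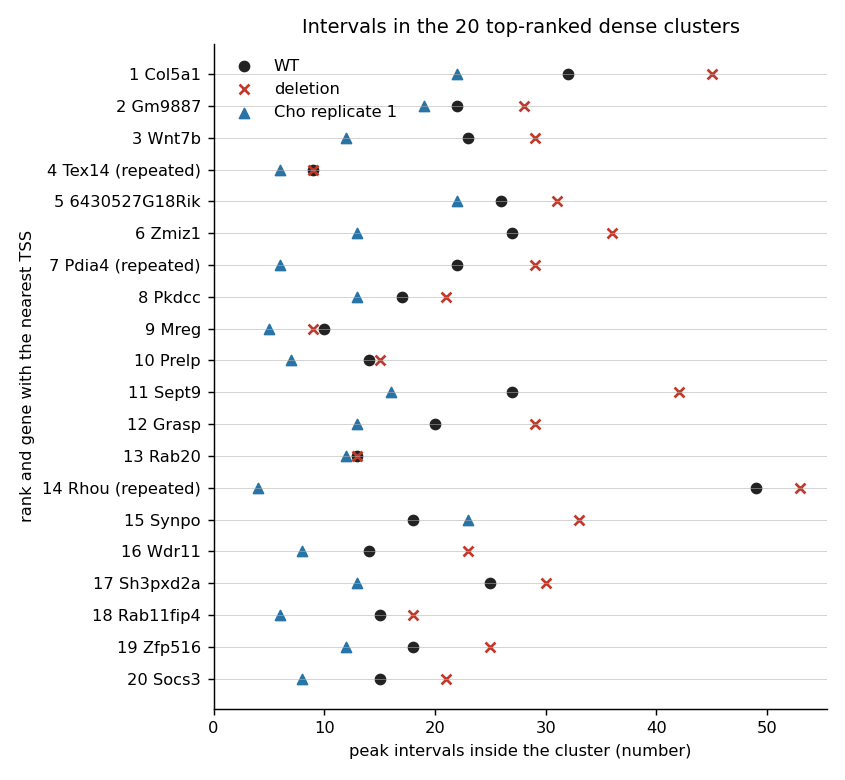
Number of peak intervals (x axis) inside each of the 20 top-ranked clusters, named by rank and by the gene with the nearest TSS (y axis). Black circles are WT, red crosses the deletion and blue triangles Cho replicate 1, and "repeated" marks clusters in which 50% or more of the windows recur in the genome. WT numbers are of distal intervals, and those of the other lists are of all intervals inside. The cluster of rank 14 has 49 WT and 53 deletion intervals and 4 in Cho replicate 1.

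Some of the densest clusters lay on sequence that occurs many times in the genome. A window of 201 bases around a summit was called repeated when 50% or more of its 31-base words occurred 2 or more times on the NCBIM37 chromosomes. This held for 429 of the clustered intervals (3.33%), beside 3.74% of all distal intervals, and 1441 clusters (91.9%) held none. In 28 clusters (1.79%) at least 50% of the intervals were repeated, and 3 of these were among the 20 top-ranked. Whether the reads behind these intervals could be placed at a single position was not measured.

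The cluster with the most intervals, chr8:126062668-126163917, was an array of 5S ribosomal RNA genes (annotated n-R5s) inside Gm20388. It held 49 WT intervals, 45 of them repeated, with a median fold enrichment of 4.85. The deletion list had 53 intervals there and Cho replicate 1 had 4, and its rank was 14 in WT, 93 in the deletion and 1392 in Cho replicate 1. The second largest, chr6:114441795-114586601, held 41 WT intervals, all of them repeated, and a median word occurred 49 times in the genome. The deletion list had 55 intervals in it and Cho replicate 1 had 0. The cluster with the most intervals per 10 kb, 24.4, was also repeated and held 6 WT intervals in 2.46 kb of Tcte2, with 4 in the deletion and 0 in Cho replicate 1.

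Small RNA genes also marked 3 clusters of the first 10. The fourth cluster, in Tex14, held genes of U3, the small nucleolar RNA of ribosomal RNA processing. All of its 9 WT intervals were repeated, and the deletion list had 9 intervals and Cho replicate 1 had 6. The seventh, at Pdia4, held Y RNA genes, and 16 of its 22 WT intervals were repeated. Its rank was 7 in WT, 27 in the deletion and 679 in Cho replicate 1. The ninth, near Mreg, held a gene of U2, an RNA of the spliceosome. It had 10, 9 and 5 intervals in WT, the deletion and Cho replicate 1, with 4 of the WT intervals repeated, and it ranked first of all in Cho replicate 1, where its highest interval had a fold enrichment of 41.8.

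Repeated windows had a low share of overlaps in Cho replicate 1 in every size class. Of the repeated intervals in dense clusters, 13.1% (10.01 to 16.6%) were overlapped by a Cho replicate 1 interval, against 53.4% (52.5 to 54.3%) of the other clustered intervals. The shares were 12.1% and 51.9% in groups of 2 to 5, and 6.38% and 47.8% among lone intervals. In the deletion list they were 90.2% and 95.9% in dense clusters. Over the 28 clusters made mostly of repeated windows, 94.1% of 340 intervals were overlapped in the deletion and 15.9% in Cho replicate 1. Of the 44 clusters without any Cho replicate 1 interval, 10 were among these 28 and 34 were not. How reads that fit several places were treated in each list is not given in the sources used here, and its part in these shares was not tested.

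The intervals of dense clusters were nearly all present in the deletion list, as distal intervals were in general. A deletion interval overlapped 12320 of 12866 clustered WT intervals, or 95.8% (95% exact binomial interval 95.4 to 96.1%, which covers counting error only). The share was 95.3% of all distal WT intervals, 95.5% in groups of 2 to 5 and 94.6% (94.2 to 94.9%) among lone intervals. The clustered share was thus near that of all distal intervals. These shares are from the full lists. With equal numbers of the strongest intervals, 80.7% of clustered intervals were overlapped in the deletion and 57.4% in Cho replicate 1.

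Cho replicate 1 met about as large a share of clustered intervals as of distal intervals in general. It overlapped 6701 clustered intervals, or 52.1% (51.2 to 52.9%), beside 49.5% of all distal WT intervals, 50.6% in groups of 2 to 5 and 45.6% (44.9 to 46.3%) among lone intervals. Clustered intervals were not stronger in WT than lone ones, with median fold enrichments of 6.41 and 6.62, although their median summit pileup was higher, at 12 against 9 tags. Within each quartile of WT fold enrichment the clustered share was above the lone share. In the lowest quartile, below 5.15, Cho replicate 1 overlapped 37.9% of clustered and 31.4% of lone intervals. In the highest, above 9.19, the shares were 74.1% and 68.1%. For the deletion list the gap was widest in the second quartile, at 96.5% and 92.5%, and nearly closed in the fourth, at 99.97% and 99.7%.

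**Figure D4:**
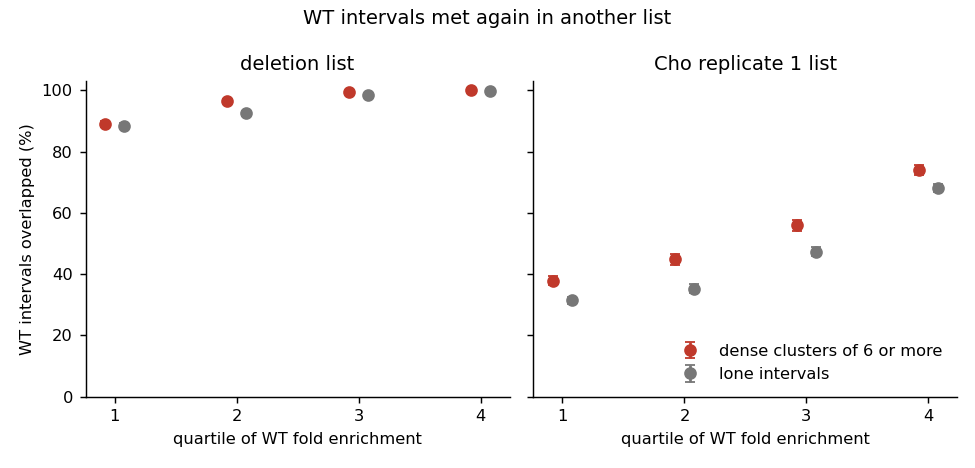
Share of WT intervals overlapped by the deletion list (left) and by Cho replicate 1 (right), in %, by quartile of WT fold enrichment (x axis, 1 is the lowest). Red points are intervals of dense clusters and grey points lone intervals, and bars are 95% exact binomial intervals, which cover counting error only. In Cho replicate 1 the clustered intervals go from 37.9% to 74.1% and lie above the lone intervals in each quartile.

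Counted by cluster, the full deletion list held the pattern of WT and the full Cho replicate 1 list held a part of it. The lists differ in size, with 137860 distal intervals in the deletion and 59011 in Cho replicate 1. With equal numbers of the strongest intervals, 63.7% of clusters met the rule again in the deletion and 39.1% in Cho replicate 1. The counts that follow are from the full lists. The deletion list had a median of 9 intervals in a dense cluster, from 4 to 55, and 1490 clusters (95.03%, 93.8 to 96.05%) had 6 or more distal deletion intervals. Of all stitched WT groups of 2 or more intervals 16.6% had that many, but those groups are shorter. In 1113 clusters (71.0%) every WT interval was overlapped, against 86.4% of groups of 2 or more, which have fewer intervals to meet. No cluster was without an overlap, against 0.114% of those groups. Cho replicate 1 had a median of 5 intervals in a cluster, from 0 to 23, and 494 clusters (31.5%, 29.2 to 33.9%) had 6 or more distal ones, against 4.05% of groups of 2 or more. Every WT interval was overlapped in 52 clusters and none in 51, or 3.32% and 3.25% of clusters, beside 22% and 21.8% of groups of 2 or more.

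Over all autosomes the deletion list had 2.02 distal intervals for each distal WT interval, and inside the dense clusters it had 1.20. For Cho replicate 1 the ratios were 0.866 and 0.575. The clusters were chosen for many WT intervals, which lowers both ratios inside them, so they are a description only. Across the 1568 clusters the summed value in WT had a Spearman correlation of 0.88 with that in the deletion and 0.43 with that in Cho replicate 1. These correlations share the WT boundaries, cluster length and base composition. Of the 20 top-ranked clusters, 13 were also among the first 20 in the deletion and 2 in Cho replicate 1, and all 20 and 9 were among the first 100.

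The fold enrichment of clustered intervals was close to that in the deletion library. Ratios were taken only where a deletion interval overlapped the WT interval, as at 12320 of 12866 clustered intervals, and the strongest that overlapped was used. The share with one was 89.0% of clustered intervals in the lowest quartile of WT fold enrichment and 99.97% in the highest. The median log2 ratio of deletion to WT was 0.22 (quartiles -0.04 and 0.52) in dense clusters, 0.34 in groups of 2 to 5, 0.40 among lone intervals and 0.33 over all distal intervals. By size it was 0.28 in clusters of 6 intervals, 0.23 in those of 7 to 9, 0.15 in those of 10 to 14, 0.16 in those of 15 to 19 and 0.09 in those of 20 or more. Fold enrichment is taken over a local background, and its median at a WT summit was 0.850 tags in dense clusters, 0.523 in groups of 2 to 5 and 0.361 among lone intervals. When the summit pileup was divided by the background of the whole library instead, the median was 0.01 in dense clusters, 0.05 in groups of 2 to 5 and 0.01 among lone intervals.

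Applied to each list on its own, the same rule found 6022 dense clusters in the deletion, with 43.8% of its distal intervals, and 1033 in Cho replicate 1, with 13.6%. The deletion clusters overlapped 96.6% of the WT clusters, and 24.3% of the deletion clusters overlapped one of WT. For Cho replicate 1 the shares were 30.7% and 46.3%. The cluster sets differed in extent, which bears on these shares. They covered 9.89% of the autosomal sequence in the deletion, 2.22% in WT and 1.36% in Cho replicate 1.

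Most dense clusters overlapped a gene. A protein-coding gene body was overlapped by 1096 clusters (69.9%), and 558 (35.6%) lay wholly inside 1 gene. The other 472 (30.1%) overlapped none. The middle of the median cluster was 37.3 kb from the nearest TSS, and 603 clusters (38.5%) were over 50 kb away. By summit, 49.4% of clustered intervals were intronic and 48.1% intergenic, against 41.7% and 55.02% of lone intervals. Chromosome 11 had the most clusters for its length, 10.4 per 10 Mb, and chromosome 14 the fewest, 4.15, with 13.6 and 7.61 protein-coding genes per Mb. The order of clusters did not simply follow that of genes. Chromosome 7, with the most genes per Mb, had 6.43 clusters per 10 Mb, and chromosome 18, with the fewest, had 6.28.

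At the level of genes, 1269 protein-coding autosomal genes hosted a cluster, which is 5.92% of 21418, and 1838 hosted one or were the nearest gene to one, which is 8.58%. Hosting genes were long, with a median of 51.5 kb against 15.5 kb for all genes. By length, 4.24% of the shortest quartile of genes and 16.1% of the longest hosted or were nearest to a cluster. Counts of list genes at WT clusters below are to be read beside these shares. Counts of hosts in the deletion list are to be read beside another share. Of 17472 protein-coding genes found by symbol in the NCBIM37 and GRCm38 annotations, 22.2% hosted a deletion cluster.

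TGF-beta and BMP ligands signal through receptor kinases and Smad proteins. Of 29 genes of TGF-beta and BMP signalling, 13 hosted or were nearest to a cluster, against 8.58% of all genes, and the list had a median gene length of 64.8 kb. Counting hosts alone, 6 of the 29 hosted a WT cluster, beside 5.92% of all genes. A cluster of the deletion list was hosted by 16, beside 22.2% of genes. Smad3 encodes the signal transducer of TGF-beta receptors. Its best cluster ranked 39 and held 16 WT, 26 deletion and 14 Cho replicate 1 intervals. A cluster near Tgfb2, the gene of a TGF-beta ligand, held 10, 11 and 7 intervals at a distance of 242 kb. One near Tgfbr2, the gene of a TGF-beta receptor, held 7, 11 and 4. Tgfb3, Tgfbr1, Tgfbr3, Bmp4, Bmp7, Ltbp1, Smad2, Smad5, Smad6 and the inhibitory Smad7 made up the rest.

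Of 25 Wnt genes 11 had a cluster, among them the receptors Lrp5, Lrp6, Ror1 and Ror2 and the nuclear factors Ctnnb1, Lef1, Tcf7l1 and Tcf7l2. At Dkk3, which encodes a secreted protein of the Dickkopf family, WT had 16 intervals, the deletion 21 and Cho replicate 1 8. At Lrp5 the numbers were 12, 20 and 5. Of 20 genes of hedgehog, PTHrP and FGF signalling, 8 had a cluster. Pth1r encodes the receptor of PTHrP, which holds back chondrocyte hypertrophy, and its cluster had 10 WT, 17 deletion and 8 Cho replicate 1 intervals. Gli2, a transcription factor of hedgehog signalling, had 7, 8 and 3. Fgfr2 was counted with 5 clusters, the best at rank 27 with 10, 13 and 6 intervals, but the annotation gives this gene a length of 3009 kb, and the TSS nearest to that cluster is that of Ate1, 214 kb away.

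AP-1 is a dimer of Fos, Jun and related proteins that many stimuli raise within minutes. Of 14 AP-1 genes, 6 hosted or were nearest to a cluster (Fos, Fosb, Jun, Junb, Atf3 and Maff), and the median length of the list was 9.39 kb. At Fos, WT had 13 intervals, the deletion 19 and Cho replicate 1 10, and the cluster ranked 63 in WT and 30 in Cho replicate 1. At Fosb the numbers were 14, 21 and 12. The cluster near Jun held 6, 8 and 8 intervals and ranked 576 in WT and 26 in Cho replicate 1, where its highest interval had a fold enrichment of 36.7 against 12.9 in WT.

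Of the genes that make cartilage matrix, 5 of 20 had a dense cluster, all 5 as hosts. A cluster of the deletion list was hosted by 16 of the 20, beside 22.2% of genes. Col2a1 encodes the main collagen of cartilage. Its cluster, chr15:97823434-97864189, ranked 601. It held 9 distal WT intervals, 14 deletion intervals (10 distal) and 8 Cho replicate 1 intervals (4 distal). All 9 WT intervals were overlapped in the deletion and 3 in Cho replicate 1. Comp, which encodes cartilage oligomeric matrix protein, shared a cluster of 13, 18 and 8 intervals (distal 13, 16 and 6) with 4 other genes. Col27a1 (12, 13 and 10), the lubricin gene Prg4 (7, 11 and 7) and Fmod, the gene of fibromodulin (17, 19 and 9), completed the 5. By distal intervals, the numbers were 12, 11 and 8 at Col27a1, 7, 10 and 7 at Prg4 and 17, 18 and 8 at Fmod. Acan, which encodes aggrecan, had no WT cluster. By the same rule it hosted one in the deletion and one in Cho replicate 2. So did Col9a1, Col11a1 and Hapln1, which had no WT cluster either. Epyc hosted one in the deletion only, and Col9a3 in Cho replicate 2 only.

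Of 20 chondrocyte transcription factors and cofactors, 6 had a cluster. The median gene length of the list was 62.4 kb, against 15.5 kb for all genes. Sox5, a partner of Sox9, had 6 WT, 6 deletion and 3 Cho replicate 1 intervals in a cluster at rank 1505. Sox5 is 954 kb long, and the middle of this cluster lay 497 kb from its TSS. Runx1 had 14, 17 and 8 in its best cluster, and Nfatc1 had 8, 13 and 7. Wwp2, which encodes a ubiquitin ligase and hosts a microRNA of cartilage, had 12, 18 and 4 in its best cluster. The microRNA gene, Mir140, lay in the other Wwp2 cluster, at rank 1393, with 6, 9 and 3 intervals. Pax9 and Foxa2 were nearest to 1 cluster each. Sox9, Sox6 and Runx2 had none in WT. By the same rule Sox6 and Runx2 each hosted one in the deletion and in Cho replicate 2, and Sox9 hosted none in any of the 4 lists. A cluster of the deletion list was hosted by 14 of these 20 genes, beside 22.2% of genes.

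Genes of other connective tissue cells were present as well. Of 20 osteoblast and fibroblast genes, 7 had a cluster, namely Col1a1, Sp7, Spp1, Thy1, Pdgfrb, Prrx1 and Postn. At Sp7, an osteoblast transcription factor, WT had 12, the deletion 15 and Cho replicate 1 9 intervals, and near Col1a1, the gene of bone and skin collagen, 8, 8 and 5. Of 26 genes of cytoskeleton, adhesion and the Hippo pathway, 10 had a cluster, led by Itga11, a collagen receptor subunit, with 19, 25 and 6 intervals. Tead1, Ctgf and Cyr61, a factor of the Hippo pathway and a pair of its target genes, were among the 10. Of 15 proteases and inhibitors 4 had a cluster, and Timp2, an inhibitor of matrix metalloproteinases, ranked highest of these with 13, 18 and 9 intervals.

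For lists that mark other cell types, 14.3% of 14 skeletal muscle genes (2, Chrna1 and Tnnt3) and 14.3% of 14 endothelial and blood genes (2, Cdh5 and Erg) hosted or were nearest to a cluster, beside 8.58% of all genes. Of 16 epithelial, neural and liver genes, 0 did. Cho replicate 1 overlapped 1 of the 7 WT intervals in the cluster at Tnnt3 and 5 of 6 in that at Chrna1. It overlapped 4 of 7 in the cluster near Cdh5 and 3 of 7 in that near Erg. These are shares of genes at peaks and say nothing of the share of cells, and whether cells of these types contributed reads was not tested.

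**Figure D5:**
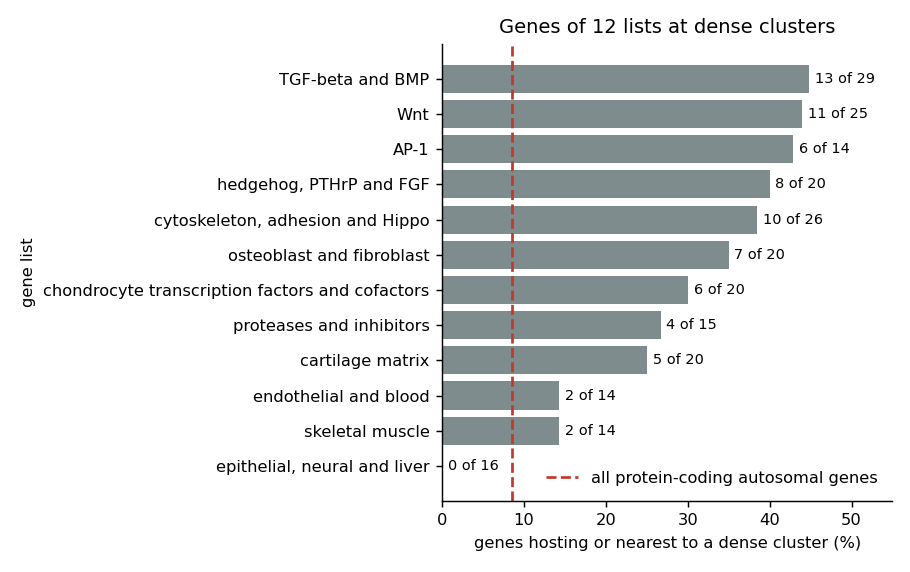
Share of the genes of each list that hosted or were nearest to a dense WT cluster (x axis, %), with the number of genes beside each bar. The dashed line is the share of all protein-coding autosomal genes, 8.58%. The lists of growth factor pathways and AP-1 are at 40% or more and the list of epithelial, neural and liver genes is at 0.

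The genes that hosted WT clusters nearly all hosted clusters in Cho replicate 2 too. Of 1104 hosting genes found by symbol in both annotations, 1050 (95.1%, 93.7 to 96.3%) hosted a Cho replicate 2 cluster, against 27.6% of 17472 genes. Within the longest quartile of genes the shares were 96.7% and 43.9%, and within the shortest 87.7% and 12.02%. Cho replicate 2 had a median of 10 distal intervals in the body of a WT hosting gene and 1 in that of all genes. The deletion hosted a cluster at 98.5% of the same genes, against 22.2% of all, and Cho replicate 1 at 32.0%, against 4.11%. In all 4 lists, 340 genes (30.8%) hosted one. Of 49 list genes that hosted a WT cluster and were found by symbol in both annotations, 48 hosted one in Cho replicate 2, all 49 in the deletion and 19 in Cho replicate 1. Without the need for a match in both annotations, which Cyr61 lacked, the numbers were 50 in WT, 50 in the deletion and 20 in Cho replicate 1. The 19 include Fos, Fosb, Smad3, Smad7, Runx1, Prg4, Gli3 and Tead1.

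By sequence, clustered intervals were richer in G and C than lone ones. The median GC share of the windows of 201 bases was 51.7% in dense clusters, 47.8% among lone intervals and 49.3% over all distal intervals. The AP-1 word was in 21.9% of clustered and 25.7% of lone windows, with 23.6% over all. SOX words were in 17.8% and 20.7% (19.7% over all), the RUNX word in 21.9% and 24.1% (23.2%) and the E-box in 19.1% and 15.9% (17.1%). The TEAD word was in 20.3% and 20.1% (20.3%), the NFI word in 17.7% and 20.1% (18.9%) and the CRE in 0.44% and 0.45% (0.45%). With GC not held equal, the AP-1, SOX, RUNX and NFI words thus had lower shares in clustered windows, and the E-box a higher one.

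Shares were also taken within quartiles of GC. Among windows of the third quartile of GC, the AP-1 word was in 22.3% of clustered and 23.1% of lone windows, and the E-box in 20.3% and 20.1%. In the second quartile the AP-1 shares were 26.3% and 26.7%. In the first quartile, where GC is lowest, the AP-1 word was in 26.8% of clustered and 32.3% of lone windows and the NFI word in 18.8% and 23.0%. In the fourth quartile the AP-1 shares were 16.7% and 15.04%. A word in a window is a description of letters and not of a bound factor.

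The clusters that were least present in the other lists were mixed. In the deletion list, the smallest share was at chr17:3006816-3038610, where 4 of 9 WT intervals were overlapped, and Cho replicate 1 had 0 intervals there. Next came a cluster 262 kb from Zmiz1 (5 of 8). After it, 16 clusters had the same share of 66.7%, and of these the first in WT rank were at Reep1 (6 of 9), at Lclat1 (4 of 6) and near Thbs1 (6 of 9). Each of the 5 clusters named here held between 6 and 10 deletion intervals. In Cho replicate 1, none of the 11 WT intervals of a cluster 21.1 kb from Fzd9, a Wnt receptor gene, was overlapped, although all 11 were overlapped in the deletion and none was repeated. Clusters at Gm10393 (13 WT intervals) and Gm9780 (10) had no Cho replicate 1 interval either, and all of their windows were repeated. In a cluster near Gdf10, 0 of 6 WT intervals were overlapped by the 2 Cho replicate 1 intervals inside.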

How the data were processed

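Primary rib chondrocytes were profiled by ATAC-Seq in 4 libraries, and groups were taken from the labels. The submitters' processing notes name fastp, Bowtie2 2.4.4, Picard 2.20.7, SAMtools 1.9 and MACS2 2.2.4, and peaks were called by the authors at a q-value of 0.05 in each library. Each deposited list gives a fold enrichment, a ratio in which 1 was added to the summit pileup and to its background before division. Significance is deposited as −log10 values, of the p-value in one column and the q-value in another. The deposited score, a rounded-down multiple of the latter, was not used. Replicates were not pooled, and read depth is not given in the lists.

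From the lists, 1 entry per interval (the strongest summit) was kept. All 69976 transcript start positions of protein-coding genes (GENCODE vM1, NCBIM37) defined distal intervals, and stitching, counts and exact binomial intervals were computed with Python 3.11.15, pandas 2.3.3 and SciPy 1.17.1. Overlap meant 1 bp or more. Summit pileups were solved as the whole number whose Poisson tail gave the listed p-value at the listed fold enrichment, to within 0.001 of the listed p-value on the log scale. Hosting genes had a body that overlapped a cluster, and the nearest gene was taken by TSS from the middle of the cluster. Cho replicate 2 was joined by gene symbol through a RefSeq table of GRCm38. Scripts were tested on simulated data. The clusters named were the 20 top-ranked, the extremes by size and by overlap, and those at genes of the 12 lists. The rule, the members and the lists were chosen with earlier results of these data known. Some items are not reported here.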

Additional observations from a re-analysis of the deposited data

Results flagged for a closer look

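Chromosome X lay outside the rule, which used autosomes. By the same rule, the 1347 distal WT intervals on chromosome X formed 10 dense clusters with 7.57% of these intervals, beside 18.9% on the autosomes. Cells of each sex were not told apart in the labels.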

How the results depend on the processing

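The results are mostly counts and shares, which have no direction, and many moved with the settings. The median log2 ratio of deletion to WT stayed positive at each setting tried, but was only 0.013 for summit pileup over library background. It compares single libraries with unequal backgrounds and is not a measure of a genotype effect. With gaps of at most 5 kb there were 154 clusters with 1.62% of distal intervals, 58.3% of clustered intervals were overlapped in Cho replicate 1, the median log2 ratio was 0.058, hosting genes were 0.378% and 4 of the 20 top clusters were kept. With gaps of at most 25 kb these values were 3078, 48.0%, 50.8%, 0.28, 19.1% and 3. With 5 or more intervals there were 2514 clusters with 25.8% of intervals and a log2 ratio of 0.24, and with 10 or more 334, 6.25% and 0.15. At q below 1e-05 in every list there were 584 clusters with 9.26% of intervals, overlaps of 96.5% in the deletion and 48.9% in Cho replicate 1, a log2 ratio of 0.12, and 93.7% and 23.3% of clusters that met the rule again. With 1 TSS per gene, 21.1% of intervals were clustered, 53.1% were overlapped in Cho replicate 1 and 7.78% of genes were hosts. Over 3 kb from a TSS the clustered share was 16.3% and the log2 ratio 0.23. With promoter intervals kept there were 2760 clusters with 27.4% of intervals, overlaps of 96.6% and 58.8% and a log2 ratio of 0.18. An overlap of at least 50% gave 93.8% and 50.1%. With equal numbers of the strongest intervals, 80.7% of clustered intervals were overlapped in the deletion and 57.4% in Cho replicate 1, and 63.7% and 39.1% of clusters met the rule again. The log2 ratio was 0.013 for summit pileup over library background and 0.77 for the −log10 q-value. The nearest gene in place of the host gave 6.57% of genes. Of the 20 top clusters, 11 were kept when ranked by number of intervals, 10 by summed fold enrichment and 12 by pileup times width. Leaving out repeated windows or intervals over 1 kb wide was chosen after seeing the data. Without repeated windows 18.5% of intervals were clustered, 53.5% of them were overlapped in Cho replicate 1, and there were 1495 clusters with 16 of the top 20 kept. Without wide intervals there were 1565 clusters, with 18 kept. No paired analysis was possible because each genotype has 1 library, so replicates could not be left out either. The cause of these changes was not tested. Fewer tags in WT than in the deletion, and wider intervals in Cho replicate 1, limit what an absent overlap shows.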
